A study of Mus musculus with 2 samples.

Results

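Genes of the axon guidance families were followed across the cell classes of the mouse testis at E14.5. A gene belonged to the set if its symbol named an Eph receptor, an ephrin, a semaphorin, a plexin, a neuropilin, a Slit, a Robo, a netrin, an Unc5 receptor or Dcc. This rule uses names only and picked 69 of the 32285 genes in the count matrix. The set holds 14 Eph receptors, 8 ephrins, 20 semaphorins, 11 plexins and neuropilins, 3 Slits, 4 Robos, 4 netrins, and 5 Unc5 receptors and Dcc. All 69 had at least 1 UMI (a unique molecular identifier, which marks 1 captured RNA molecule), and 59 passed the minimum of 50 UMIs in all and 10 CPM in at least 1 class, where CPM is the count of a gene scaled to the same total in every class.

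Guidance proteins steer axons and blood vessels, and the same families act between cells outside the nervous system. Slits are secreted ligands of Robo receptors, netrins bind Dcc and the Unc5 receptors, and semaphorins signal through plexins, with neuropilins as partners for the secreted class 3 members. Ephrins sit in the membrane of 1 cell and bind Eph receptor kinases on its neighbour. In the fetal gonad, cords of Sertoli and germ cells, steroid-making Leydig cells, interstitial progenitors, vessels and the covering epithelium lie side by side, together with cells of the adjoining mesonephros.

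Nuclei of whole testes were profiled with a 10x multiome assay, which reads RNA and accessible chromatin (ATAC) from the same nucleus. There was 1 RNA library and 1 ATAC library, from E14.5 embryos carrying Nr5a1-cre, a recombinase active in steroidogenic and supporting cells, and the Rosa-tdTomato reporter. All nuclei came from such embryos and no sample lacked these alleles. The sources used here do not say how many embryos were pooled. With 1 library there is no replicate and no test between samples. Every interval below is a 95% interval for counting error alone.

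After filtering, 7198 of 9833 barcodes were kept, with a median of 7948 UMIs, 3157.5 genes and 4477 fragments per nucleus. Clusters were made without the RNA of the 69 genes, and each was named by marker genes as "X-like". The ATAC side of the clustering did not leave out peaks at these genes. The classes were progenitor-like (2354 nuclei), germ-like (974), contractile-like (930), Sertoli-like (830), Leydig-like (797), surface epithelium-like (558), mesonephric mesenchyme-like (396), endothelial-like (94), immune-like (68) and pericyte-like (66). A cluster of 87 nuclei led by Pax8 scored highest for markers of mesonephric epithelium. Pax8 itself is on the list for supporting cells, so the naming rule left the cluster unnamed. With the automatic doublet threshold and with stricter minimums on nuclei, a Pax8-led cluster was named supporting. The study calls its Pax8-positive cluster supporting-like. The 44 erythroid-like nuclei were too few to rank. All markers were highest in their own class for Leydig-like (6 of 6), germ-like (6 of 6), endothelial-like (7 of 7), immune-like (6 of 6) and pericyte-like nuclei (8 of 8). The counts were 5 of 6 for Sertoli-like, 5 of 7 for surface epithelium-like, 3 of 4 for mesonephric mesenchyme-like and 4 of 6 for contractile-like nuclei. For progenitor-like nuclei only 3 of 7 markers were highest there, and Pdgfra, Tcf21 and Wnt5a peaked in contractile-like nuclei, so these markers do not sharply divide the 2 classes.

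Free RNA and very deep barcodes touch all levels below. Each class was compared with the pool of all 9833 barcodes, those filtered out included. Markers of other classes stood, in the median, at 25.0% of their pooled level in mesonephric mesenchyme-like nuclei and at 53.3% in endothelial-like nuclei. The other classes lay in between. Among 72 nuclei above 50000 UMIs, 7 were endothelial-like and held 47.9% of the UMIs of that class, 2 were immune-like and held 37.8%, and 45 were germ-like and held 24.0%. Levels without such nuclei are given further on for the members whose level, call or order they move most. The part of free RNA or merged nuclei in any level was not tested.

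The sequences that go with the chromatin results are shown here. They comprise the promoters of 3 members above the minimum, those with the highest ratio of promoter fragments in the class with the most RNA over all other nuclei among ratios whose interval lay above 1, and the centres of 5 peaks in or near members whose accessibility was most unequal between that class and all other nuclei. Promoters run from 250 bases before to 50 after the RefSeq start (build GRCm38.p6, read 5′ to 3′ on the gene's strand), and peak centres are 300 bases of the plus strand. Capitals mark exact matches, on either strand, to short motifs of 6 factor families. The SOX motif was searched as ACAATG, that of GATA factors as AGATAA and that of ETS factors as GGAAGT. The TEAD motif was searched as GGAATG, the one bound by NR5A1 as AAGGTCA and that of SP factors as GGGCGG.
Robo4 promoter, plus strand, chr9:37401722-37402021: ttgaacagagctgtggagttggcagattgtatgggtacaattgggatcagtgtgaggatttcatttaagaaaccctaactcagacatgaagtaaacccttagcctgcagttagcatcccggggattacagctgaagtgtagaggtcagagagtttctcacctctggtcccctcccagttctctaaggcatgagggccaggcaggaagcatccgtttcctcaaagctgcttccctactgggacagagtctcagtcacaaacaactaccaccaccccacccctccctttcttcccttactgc
Sema3g promoter, plus strand, chr14:31217623-31217922: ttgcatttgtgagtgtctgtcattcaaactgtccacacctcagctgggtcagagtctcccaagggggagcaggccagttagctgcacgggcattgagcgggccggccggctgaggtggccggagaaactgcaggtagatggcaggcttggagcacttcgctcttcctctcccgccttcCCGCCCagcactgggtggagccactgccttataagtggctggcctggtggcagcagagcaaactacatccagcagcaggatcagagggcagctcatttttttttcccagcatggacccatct
Epha3 promoter, minus strand, chr16:63864126-63864425: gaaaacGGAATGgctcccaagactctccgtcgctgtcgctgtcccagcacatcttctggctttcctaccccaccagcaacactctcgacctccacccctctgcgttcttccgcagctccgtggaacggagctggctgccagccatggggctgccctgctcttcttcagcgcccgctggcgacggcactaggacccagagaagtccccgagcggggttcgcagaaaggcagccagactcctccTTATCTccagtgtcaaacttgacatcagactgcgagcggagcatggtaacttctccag
Sema5b peak, chr16:35648033-35648332: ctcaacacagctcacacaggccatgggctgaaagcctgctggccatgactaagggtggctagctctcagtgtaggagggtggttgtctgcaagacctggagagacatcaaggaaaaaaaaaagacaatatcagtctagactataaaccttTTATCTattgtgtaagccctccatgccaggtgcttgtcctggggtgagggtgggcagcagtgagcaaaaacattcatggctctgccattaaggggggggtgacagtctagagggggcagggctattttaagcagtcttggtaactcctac
Plxnc1 peak, chr10:94883161-94883460: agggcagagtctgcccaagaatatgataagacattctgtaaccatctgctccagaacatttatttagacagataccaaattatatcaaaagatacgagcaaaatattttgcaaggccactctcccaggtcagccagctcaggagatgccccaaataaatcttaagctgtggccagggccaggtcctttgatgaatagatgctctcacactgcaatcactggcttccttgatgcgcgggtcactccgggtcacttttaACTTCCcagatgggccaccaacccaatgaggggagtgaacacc
Sema6c peak, chr3:95180054-95180353: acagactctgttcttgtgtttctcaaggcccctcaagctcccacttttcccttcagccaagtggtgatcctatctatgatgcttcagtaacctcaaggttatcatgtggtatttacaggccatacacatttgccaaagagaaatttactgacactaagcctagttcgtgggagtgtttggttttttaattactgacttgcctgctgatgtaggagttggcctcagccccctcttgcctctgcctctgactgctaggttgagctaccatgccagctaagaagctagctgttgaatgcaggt
Sema3e peak, chr5:13992925-13993224: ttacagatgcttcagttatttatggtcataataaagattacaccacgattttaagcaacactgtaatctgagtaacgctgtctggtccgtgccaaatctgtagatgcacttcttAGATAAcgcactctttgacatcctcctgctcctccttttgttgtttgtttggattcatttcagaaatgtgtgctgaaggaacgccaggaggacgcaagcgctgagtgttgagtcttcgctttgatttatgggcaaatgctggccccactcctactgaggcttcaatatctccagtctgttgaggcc
Sema3a peak, chr5:13470111-13470410: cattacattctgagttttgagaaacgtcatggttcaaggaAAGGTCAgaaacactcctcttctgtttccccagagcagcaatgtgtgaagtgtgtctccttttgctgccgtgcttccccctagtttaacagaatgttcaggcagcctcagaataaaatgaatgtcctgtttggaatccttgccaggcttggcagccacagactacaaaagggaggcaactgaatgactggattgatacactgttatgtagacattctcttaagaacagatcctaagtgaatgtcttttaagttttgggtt

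The Robo4 promoter and the Sema6c peak held none of the 6 motifs, and each of the other windows held 1 or 2. Over all 109183 peak centres of this length the share with a match was 12.6% for SOX, 17.3% for GATA, 20.5% for ETS, 18.5% for TEAD, 10.8% for NR5A1 and 19.5% for SP. A match is thus common, and single matches are a description of the letters. Of the 69 members, 59 had a promoter entry in the RefSeq table, with 75 promoters between them. The SP letters stood in 70.7% of those 75 promoters and in 35.7% of all 32851 promoters of the table, whereas the GATA letters stood in 4.0% and 11.2%.

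Of the 59 members above the minimum, 19 were led by 1 class, which means that the highest class had at least 2-fold the CPM of the next. Over all genes tested the share led was 20.1%, and 19 of 59 lies above it. This depends on the minimum. At 1 UMI with no CPM minimum 21 of 69 members were led, below the 34.7% of all genes. The median ratio of the highest to the next class was 1.55 for members and 1.25 for all genes. The highest class of a member was seldom the one most common among other genes. Germ-like nuclei had the highest level for 25.0% of all tested genes but for only 2 of the 59 members, Ntn1 and Unc5d. Endothelial-like and surface epithelium-like nuclei had the highest level for 11 members each, against 4.70% and 4.88% of all tested genes. Of those highest in surface epithelium-like nuclei, Dcc, Efna2, Efna4, Plxnb1 and Plxnb2 did not differ from the next class beyond counting error. Progenitor-like nuclei, the largest class, led 0 of the 59 by the 2-fold rule and had the highest level for Robo2 and Efna5. Over all genes tested these shares were 0.103% and 2.93%, so both counts are near the background.

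**Figure D1:**
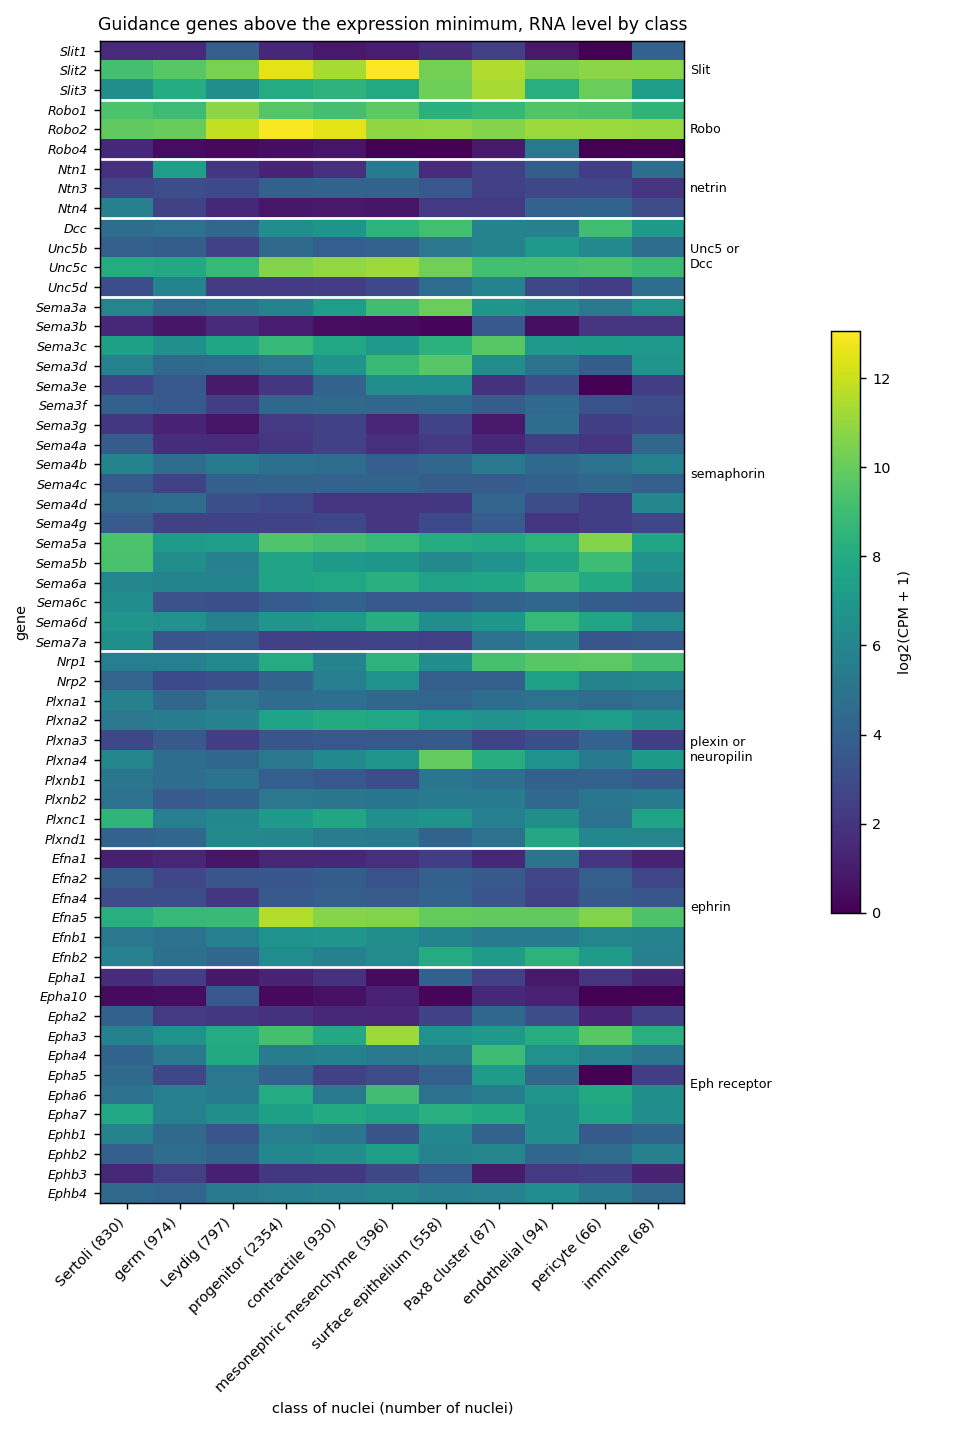
Heat map of the 59 guidance genes above the expression minimum (rows, grouped by family) in 11 classes of nuclei (columns, number of nuclei in parentheses), coloured by log2(CPM + 1). Slit2, Robo2 and Efna5 are bright in progenitor-like nuclei, Plxna4, Sema3a and Sema3d in surface epithelium-like nuclei, and Ntn1 stands out in germ-like nuclei.

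Slit2 and Robo2 had large UMI counts, so that counting error is small. Slit2, a secreted Slit (chr5:47983138-48307733, GENCODE vM21), reached 8539 CPM in mesonephric mesenchyme-like and 5984 CPM in progenitor-like nuclei. It was at 2911 CPM in the Pax8-led cluster, 2622 in contractile-like, 1391 in Leydig-like and 588 in Sertoli-like nuclei. Per kb of gene span Slit2 reached 26.3 CPM in its highest class, the largest such value of the Slit and Robo genes, and Robo2 reached 15.2 CPM per kb. Among classes of at least 300 nuclei the level of Slit2 was lowest in Sertoli-like and germ-like nuclei, the cells of the cords.

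Slit3 (chr11:35121224-35708507) had another distribution. It was at 2606 CPM in the Pax8-led cluster, 1177 in surface epithelium-like and 1130 in pericyte-like nuclei, and between 87.2 and 344 CPM in the other ranked classes. The ratio of the Pax8-led cluster to the next class was 2.21 (2.12 to 2.31), and with nuclei thinned to 2000 UMIs 89.7% of that cluster had a Slit3 UMI against 6.29% of Sertoli-like nuclei, the lowest share. Within surface epithelium-like nuclei Slit3 was uneven, at 784 CPM in the larger cluster of 466 nuclei and 3160 CPM in the smaller of 92. Slit1 was at 14.3 CPM in Leydig-like and 16.1 CPM in immune-like nuclei and at most 4.51 CPM elsewhere.

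The receptors had their highest levels in interstitial classes. Robo2 (chr16:73891839-74411825) was at 7887 CPM in progenitor-like, 5956 in contractile-like and 3672 in Leydig-like nuclei, and at 938 CPM in Sertoli-like nuclei. Robo1 (chr16:72308306-73046095) had its peak in Leydig-like nuclei at 1788 CPM, against 868 in mesonephric mesenchyme-like, 788 in progenitor-like and 312 in surface epithelium-like nuclei. The ratio of Leydig-like nuclei to the next class was 2.06 (1.98 to 2.15). This call was kept under 9 of 12 alternative settings. Both genes lie on the same chromosome less than 1 Mb apart, yet their highest classes differ. Robo4, the Robo of endothelium, was at 37.9 CPM in endothelial-like nuclei and at most 1.83 CPM elsewhere, a ratio of 20.8 (12.4 to 36.7). Robo3 had 7 UMIs in all.

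**Figure D2:**
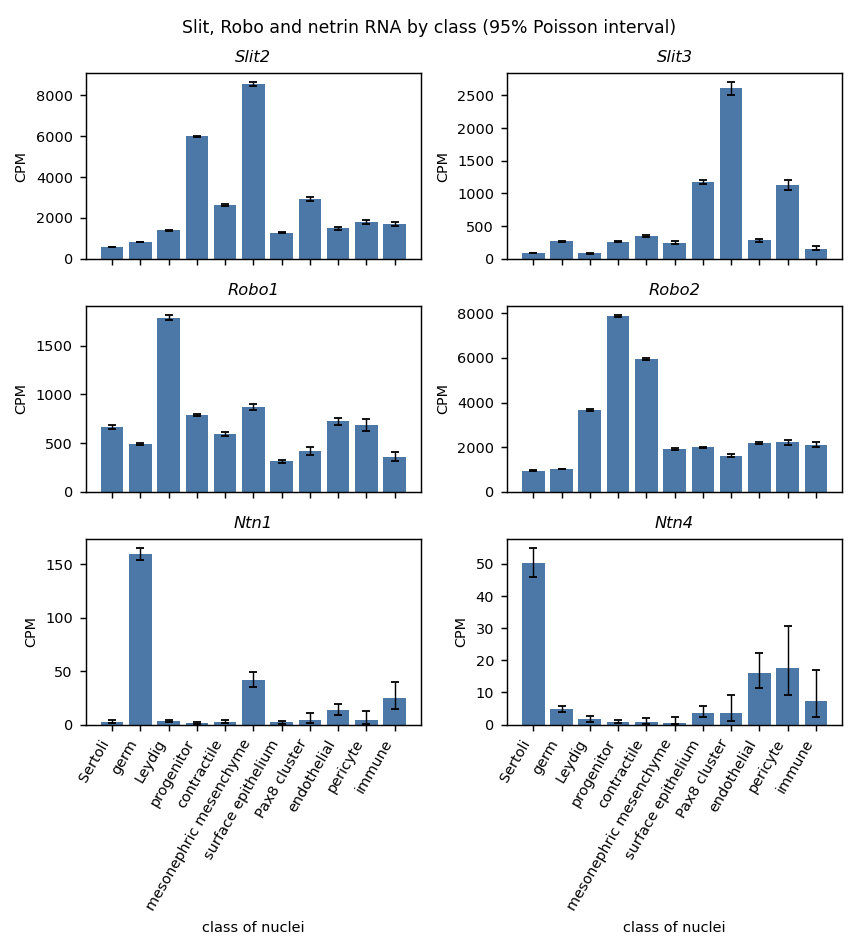
Bars give the CPM of Slit2, Slit3, Robo1, Robo2, Ntn1 and Ntn4 (1 panel each, linear axis from 0) in 11 classes of nuclei, with 95% Poisson intervals for counting error. Robo1 is highest in Leydig-like nuclei at 1788 CPM, Ntn1 in germ-like nuclei at 160 CPM and Ntn4 in Sertoli-like nuclei at 50.4 CPM.

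The netrins Ntn1 and Ntn4 were split between the cell types of the cord. Ntn1, the founding secreted netrin (chr11:68209364-68400823), was at 160 CPM in germ-like nuclei and 41.7 CPM in mesonephric mesenchyme-like nuclei, and at 1.43 to 4.51 CPM in progenitor-like, contractile-like, Sertoli-like, Leydig-like and surface epithelium-like nuclei, the Pax8-led cluster and pericyte-like nuclei. Its ratio in germ-like nuclei over the next class was 3.83 (3.21 to 4.60). Thinned to 2000 UMIs, 27.5% of germ-like nuclei had an Ntn1 UMI against 0.257% of progenitor-like nuclei, which serve here as the background share.

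Ntn4, a laminin-binding netrin of basement membranes (chr10:93640681-93747207), was at 50.4 CPM in Sertoli-like, 17.7 in pericyte-like and 16.1 in endothelial-like nuclei, and at 0.642 to 7.32 CPM in the other classes ranked. The ratio of the highest to the next was 2.86 (1.62 to 5.56), and 9.19% of thinned Sertoli-like nuclei had a UMI against 0.0855% of progenitor-like nuclei. Ntn3 was at 17.5 CPM in contractile-like, 16.7 in mesonephric mesenchyme-like and 5.68 CPM in Sertoli-like nuclei, and Ntn5 had 27 UMIs in all.

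Of 4 tested netrin receptors, 0 were led by 1 class, where the share of all genes was 20.1%. For so few genes this count is near that share. Unc5c, a repulsive netrin receptor, was high throughout the stroma, at 2245 CPM in mesonephric mesenchyme-like, 1967 in contractile-like, 1597 in progenitor-like and 1232 in surface epithelium-like nuclei. Dcc, the attractive receptor, was at 541 CPM in surface epithelium-like and 536 CPM in pericyte-like nuclei, which do not differ beyond counting error (ratio 1.01, 0.905 to 1.13), and at 350 CPM in mesonephric mesenchyme-like nuclei. In Leydig-like nuclei it was at 20.2 CPM. Unc5b, known from endothelial tip cells, was at 133 CPM in endothelial-like nuclei and 70.6 CPM in pericyte-like nuclei. Unc5d was at 57.7 CPM in germ-like nuclei and 56.9 CPM in the Pax8-led cluster, again not distinguishable (ratio 1.01, 0.787 to 1.33). With clusters from RNA alone Unc5d was at 128 CPM in the Pax8-led cluster and was led there. Unc5a stayed at 3.0 CPM or less.

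Among semaphorins the class 3 genes Sema3d, Sema3a, Sema3e and Sema3c lie in this order within chr5:12383385-17730268. The first 3 shared a pattern in surface epithelium-like and mesonephric mesenchyme-like nuclei. Sema3a, a secreted repellent, was at 1065 and 532 CPM in these classes, 155 CPM in contractile-like and 23.5 CPM in germ-like nuclei. Sema3d was at 826 and 440 CPM in the same classes and 109 CPM in contractile-like nuclei. Sema3e was at 80.0 and 85.1 CPM, and 17 CPM in contractile-like nuclei. Sema3c, farther along the chromosome, did not share it. It was at 807 CPM in the Pax8-led cluster, 422 in progenitor-like and 325 in surface epithelium-like nuclei, and at 128 CPM in mesonephric mesenchyme-like nuclei.

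Sema3g, Sema3b and Sema3f are the other secreted semaphorins. Sema3g, a vascular semaphorin, was at 25.7 CPM in endothelial-like nuclei and at most 5.85 CPM elsewhere (ratio 4.39, 1.63 to 16.7). Sema3b reached 11.7 CPM in the Pax8-led cluster on 13 UMIs, with an interval of its ratio from 0.903 to 36.4, so this lead is within counting error. Sema3f lay between 4.20 and 22.2 CPM.

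Of 18 tested semaphorins 5 were led by 1 class, where the share of all genes was 20.1%. Those of them bound to the membrane were Sema6c, led by Sertoli-like, Sema5a, led by pericyte-like, and Sema4d, led by immune-like nuclei. Sema6c was at 82.5 CPM in Sertoli-like nuclei against 19.6 CPM in the next class (ratio 4.20, 3.11 to 5.81). Sema5b, with thrombospondin repeats, was at 641 CPM in Sertoli-like and 508 CPM in pericyte-like nuclei. Its relative Sema5a was at 1564 CPM in pericyte-like nuclei, 2.25 times the next class (2.11 to 2.39), with 651 CPM in Sertoli-like and 696 CPM in progenitor-like nuclei. The call of Sema5a was kept under 9 of 12 alternative settings. Sema7a, a GPI-anchored semaphorin, was at 89.5 CPM in Sertoli-like and 49.7 CPM in endothelial-like nuclei and at 4.52 CPM in progenitor-like nuclei. Sema6a and Sema6d were highest in endothelial-like nuclei, at 464 and 431 CPM.

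Sema4d, an immune semaphorin, was at 64.4 CPM in immune-like nuclei against 23.4 CPM in germ-like nuclei (ratio 2.75, 1.97 to 3.75), and 94.1 CPM without the deep nuclei. Its call was kept under 9 of 12 alternative settings. The other class 4 genes were more even. Sema4b lay between 13.8 and 59.3 CPM and Sema4c between 4.97 and 20.6 CPM.

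**Figure D3:**
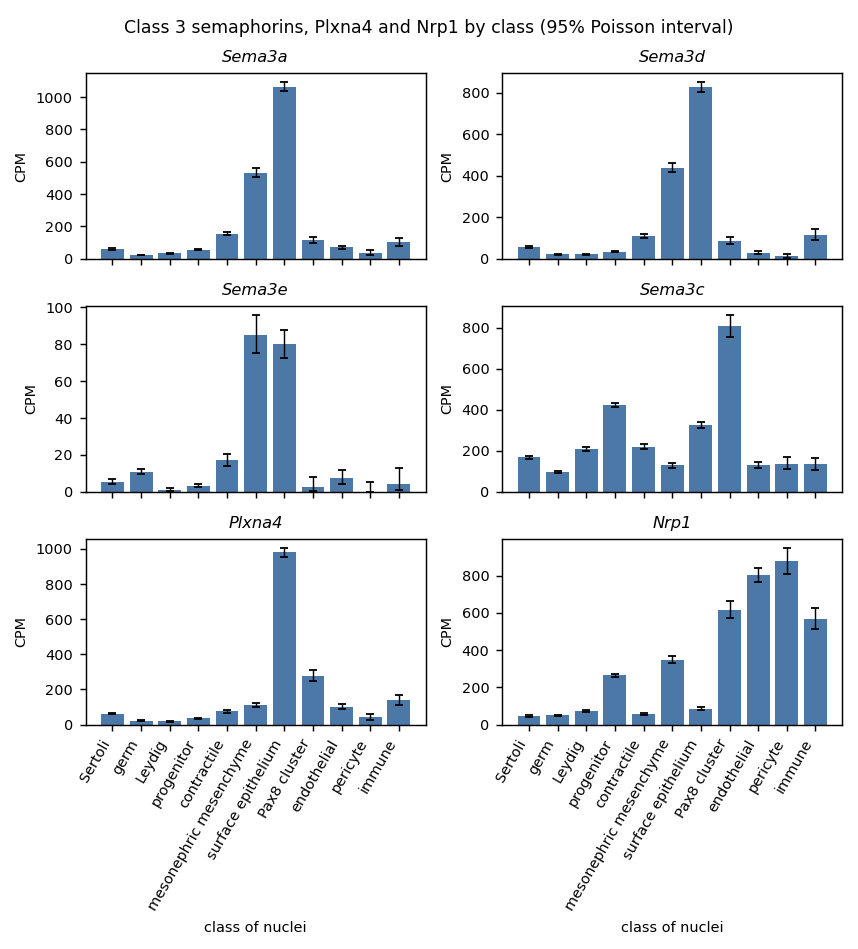
Bars give the CPM of Sema3a, Sema3d, Sema3e, Sema3c, Plxna4 and Nrp1 (1 panel each, linear axis from 0) in 11 classes of nuclei, with 95% Poisson intervals for counting error. Sema3a, Sema3d and Sema3e share their 2 highest classes, Sema3c does not, and Plxna4 is at 980.0 CPM in surface epithelium-like nuclei.

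Of 10 tested plexins and neuropilins, 2 were led by 1 class, near the 20.1% of all genes, and 3 were led without the deep nuclei. Plxna4, a receptor for class 3 and class 6 semaphorins (chr6:32144268-32588192), was at 980.0 CPM in surface epithelium-like nuclei and 276 CPM in the Pax8-led cluster (ratio 3.55, 3.16 to 3.99). It was at 36.1 CPM in progenitor-like nuclei and lowest in Leydig-like nuclei at 19.3 CPM, and 73.1% of thinned surface epithelium-like nuclei had a UMI against 1.54% of germ-like nuclei. The class with the highest Sema3a and Sema3d was thus also the class with the highest Plxna4, and its Nrp1 level was 86.4 CPM. Nrp1, the class 3 co-receptor and a VEGF receptor, was at 877 CPM in pericyte-like, 802 in endothelial-like, 618 in the Pax8-led cluster and 566 CPM in immune-like nuclei. Pericyte-like and endothelial-like nuclei did not differ in Nrp1 beyond counting error (ratio 1.09, 0.995 to 1.20), and without the deep nuclei endothelial-like nuclei were the higher, at 1062 against 912 CPM.

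Plxnd1, the endothelial plexin, was at 235 CPM in endothelial-like nuclei against 71.0 CPM in Leydig-like nuclei (ratio 3.32, 2.95 to 3.73). Plxnc1, the receptor of Sema7a, was at 377 CPM in Sertoli-like, 211 in contractile-like and 199 CPM in immune-like nuclei. Nrp2 was at 175 CPM in endothelial-like and 98.2 CPM in mesonephric mesenchyme-like nuclei. Plxna2 was spread over contractile-like, mesonephric mesenchyme-like and progenitor-like nuclei at 255, 218 and 192 CPM. Plxnb3 had 16 UMIs in all.

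Of the ephrins, 1 of 6 tested was led by 1 class, near the 20.1% of all genes. Efna1, an ephrin of endothelium, was at 31.4 CPM in endothelial-like nuclei and at most 4.42 CPM elsewhere (ratio 7.10, 4.42 to 11.8). Efna5 was at 3037 CPM in progenitor-like nuclei, 1636 in contractile-like, 1542 in mesonephric mesenchyme-like and 291 CPM in Sertoli-like nuclei. Efnb2, the arterial ephrin, was at 353 CPM in endothelial-like and 258 CPM in surface epithelium-like nuclei and at 20.2 CPM in Leydig-like nuclei. Efnb1 lay between 28.2 and 113 CPM. In the highest class and per kb of gene span, the levels were 10.96 CPM for Efna5, 8.78 for Efnb1 and 8.06 for Efnb2. Efna2 and Efna4 did not exceed 16.0 CPM, and Efna3 and Efnb3 did not pass the minimum.

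The Eph receptors, kinases that read ephrins on neighbouring cells, had 6 of 12 tested members led by 1 class, where the share of all genes was 20.1%, and 7 led without the deep nuclei. Epha3 (chr16:63543534-63864175) was at 2258 CPM in mesonephric mesenchyme-like, 822 in pericyte-like and 580 CPM in progenitor-like nuclei, and at 52.1 CPM in Sertoli-like nuclei. Epha6, on the same chromosome, was at 538 CPM in mesonephric mesenchyme-like and 266 CPM in progenitor-like nuclei. Epha4 was at 489 CPM in the Pax8-led cluster and 239 CPM in Leydig-like nuclei, and lay between 17.7 and 97.2 CPM in the others. Epha5 was at 148.9 CPM in the Pax8-led cluster against 35.4 CPM in Leydig-like nuclei. Both stood out in the same pair of classes. Epha7 was broad, at 306 CPM in surface epithelium-like, 249 in contractile-like and 230.0 CPM in Sertoli-like nuclei, and at 51.2 CPM in germ-like nuclei.

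Epha10 and Epha1 were led by 1 class at low levels. Epha10, a kinase-inactive Eph receptor, was at 10.5 CPM in Leydig-like nuclei on 93 UMIs and at most 1.81 CPM elsewhere, and this call was kept under 8 of 12 alternative settings. Epha1 was at 15.5 CPM in surface epithelium-like nuclei against 4.51 CPM in the next class. Of the EphB receptors tested (Ephb1, Ephb2, Ephb3 and Ephb4) none was led with all nuclei. For so few genes this is near the 20.1% of all genes. Ephb3 was led by surface epithelium-like nuclei without the deep ones (ratio 2.08, 1.23 to 3.67). Ephb4, the partner of Efnb2 on veins, was at 79.8 CPM in endothelial-like nuclei and 60.3 CPM in mesonephric mesenchyme-like nuclei, and Ephb2 was at 151 CPM in mesonephric mesenchyme-like and 86.3 CPM in contractile-like nuclei.

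The other 9 members above the minimum did not exceed 83.7 CPM in any class. Ephb1 lay between 9.63 and 83.7 CPM, with its peak in endothelial-like nuclei, and Ephb3 reached 12.2 CPM in surface epithelium-like nuclei, 1.99 times the next class. Sema3a and Ephb3 stood just outside the 2-fold rule, and Epha6 at 2.02 and Epha4 at 2.04 times the next class just inside. Epha2, a receptor of epithelia, was at 19.9 CPM in the Pax8-led cluster and 15.9 CPM in Sertoli-like nuclei and at 7.85 CPM or less elsewhere. Plxna1 was at 52.1 CPM in Sertoli-like nuclei and Plxnb1 at 33.5 CPM in both surface epithelium-like and Sertoli-like nuclei. Plxnb2 and Plxna3 varied from 12.6 to 42.7 CPM and from 4.31 to 16.2 CPM. Sema4a was at 19.0 CPM in immune-like and 13.6 CPM in Sertoli-like nuclei, and Sema4g reached 12.7 CPM.

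The 10 members below the minimum had few molecules. Efnb3 had 412 UMIs, Ephb6 397 and Unc5a 152 over the ranked classes, none above 10 CPM in a class. Sema4f had 79 UMIs, Efna3 66, Epha8 40, Sema6b 35, Ntn5 27, Plxnb3 16 and Robo3 7. For 9 of the 10, the interval of the highest class over the next held equal levels, so that no highest class could be told at this depth. The exception was Ephb6, at 9.74 CPM in Sertoli-like against 6.92 CPM in Leydig-like nuclei. The Sema4f promoter had 44.0 CPM of fragments in germ-like nuclei, which held 58 of its 79 UMIs, and 12.5 CPM in all other nuclei.

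Endothelial-like nuclei require a closer look because 7 deep nuclei held 47.9% of their UMIs. Without the 72 nuclei above 50000 UMIs, the endothelial level of Robo4 was 55.2 CPM, of Plxnd1 337 CPM, of Efna1 37.6 CPM and of Sema3g 39.3 CPM, each above the value with them. Nrp2, Sema6a, Sema6d and Unc5b then also passed the 2-fold rule in endothelial-like nuclei, with Nrp2 at 294 CPM and 2.96 times the next class (2.53 to 3.46). In all 26 members were led without those nuclei, 19 of them in the same class as before, while the share of all genes led was 22.6% instead of 20.1%. Semaphorins made up 9 of the 26, against 5 of the 19. Of the 59 members above the minimum, 18 were semaphorins, so both counts are near that share. Beside the 4 endothelial genes, those that passed were Ephb3 and Sema3a in surface epithelium-like nuclei, at 12.9 and 1109 CPM, and Sema3c in the Pax8-led cluster at 870 CPM, each just past 2-fold. Sema6a was then at 681 CPM, Sema6d at 570, Unc5b at 170, Efnb2 at 464, Ephb1 at 114 and Ephb4 at 105 CPM. In germ-like nuclei Ntn1 was at 183 CPM and Unc5d at 64.7 CPM without them, whereas Slit2 was at 442 instead of 820 CPM and Epha7 at 32.4 instead of 51.2 CPM. In immune-like nuclei Slit1 was at 25.9 CPM on 11 UMIs and Sema4a at 21.2 CPM.

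The endothelial-like class joins 2 clusters that differ in these genes. In the cluster of 32 nuclei, led by Gja5, Sox17 and Dll4, known arterial genes, Efnb2 was at 498 CPM against 188 CPM in the cluster of 62. Unc5b was at 216 and 38.2 CPM, Sema3g at 41.0 and 8.38 CPM, and Epha6 at 183 and 32.6 CPM. The reverse held for Nrp2, known from veins and lymphatics, at 16.4 CPM in the cluster of 32 and 356 CPM in the cluster of 62, a ratio of 21.7 (13.9 to 35.9). Sema3d was at 7.38 and 54.0 CPM and Sema6a at 302 and 647 CPM. The 4 deep nuclei of the cluster of 32 held 67.5% of its UMIs and the 3 of the cluster of 62 held 25.5%, so few nuclei carry these sums.

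Leydig-like nuclei had less of most guidance genes than the progenitor-like nuclei of the same interstitium. Of 45 members tested, 25 were at least 2-fold higher in progenitor-like nuclei, where the share of all genes tested was 13.9%. In Leydig-like nuclei 7 were at least 2-fold higher, against 12.1% of all genes. The median log2 ratio, progenitor-like over Leydig-like, was 1.05 for members and -0.06 for all genes. Those higher in progenitor-like nuclei included Efna5 (ratio 6.74, 6.53 to 6.96), Epha6 (6.70, 6.01 to 7.49), Sema3f (4.74, 3.38 to 6.84), Ephb1 (4.70, 3.77 to 5.93) and Sema5a (4.36, 4.13 to 4.61). Slit2 followed at 4.30 (4.22 to 4.38). These sizes depend on the processing far more than on counting. Over the alternatives the ratio lay between 4.65 and 22.9 for Efna5, 3.93 and 145 for Epha6, 3.61 and 336 for Sema3f, 2.55 and 124 for Ephb1 and 2.84 and 12.1 for Sema5a, with the direction kept.

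For those higher in Leydig-like nuclei the ratio was 0.0261 for Epha10, 0.123 for Slit1, 0.187 for Epha4, 0.395 for Sema7a and 0.434 for Plxnb1, and Robo1 and Epha5 made up the 7. Robo1 and Robo2 thus went opposite ways, with Robo1 at 788 and 1788 CPM and Robo2 at 7887 and 3672 CPM in the progenitor-like and the Leydig-like class.

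**Figure D4:**
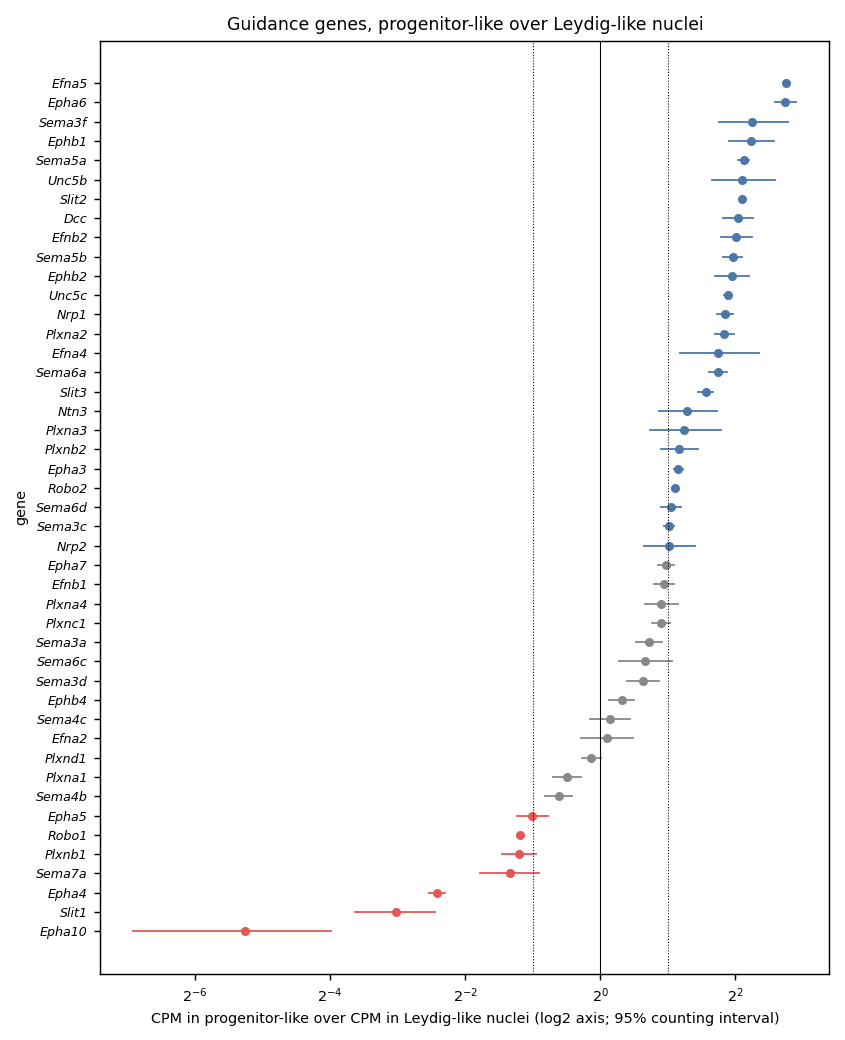
Ratio of the CPM of progenitor-like to that of Leydig-like nuclei for 45 guidance genes (rows) on a log2 axis, with 95% counting intervals. Dotted lines mark 2-fold in each direction, and 25 genes lie beyond it towards progenitor-like nuclei (blue) and 7 towards Leydig-like nuclei (red).

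Between Sertoli-like and progenitor-like nuclei members differed in both directions. Of 48 tested, 12 were at least 2-fold higher in Sertoli-like nuclei (14.1% of all genes) and 18 in progenitor-like nuclei (11.9% of all genes). Higher in Sertoli-like nuclei were Ntn4 (ratio 65.3, 38.6 to 120), Sema7a (19.8, 15.8 to 25.1), Sema6c (6.39, 5.52 to 7.43), Epha2 (5.90, 4.25 to 8.30) and Sema4a (4.18, 3.06 to 5.78). With Sema4d, Sema5b, Sema4g and Sema4b, 7 of the 12 were semaphorins, and Plxnc1, Plxnb1 and Plxna1 were their receptors. Of the 59 members above the minimum, 18 were semaphorins. Higher in progenitor-like nuclei were Epha3 (ratio 0.0898), Efna5 (0.0959), Slit2 (0.0982), Epha6 (0.110) and Robo2 (0.119). Over the alternatives the ratio lay between 34.0 and 75.5 for Ntn4, 12.9 and 22.9 for Sema7a, 0.0112 and 0.209 for Slit2 and 0.0184 and 0.207 for Robo2.

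Surface epithelium-like nuclei had more Plxna4, Sema3a, Sema3d and Sema3e than progenitor-like nuclei. Of 46 members, 11 were at least 2-fold higher there (8.66% of all genes) and 10 were at least 2-fold higher in progenitor-like nuclei (6.15% of all genes). The ratio was 27.1 for Plxna4 (25.0 to 29.5), 25.5 for Sema3e (19.3 to 34.2), 23.7 for Sema3d (21.8 to 25.8), 19.1 for Sema3a (17.9 to 20.4) and 11.2 for Epha1 (7.11 to 18.3). In the other direction it was 0.111 for Epha6, 0.169 for Epha3, 0.212 for Slit2, 0.252 for Robo2 and 0.267 for Plxnd1. Over the alternatives the ratio lay between 19.8 and 149 for Plxna4, 11.97 and 68.2 for Sema3e, 15.0 and 158 for Sema3d, 12.9 and 59.9 for Sema3a and 8.11 and 26.4 for Epha1.

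Mesonephric mesenchyme-like nuclei, too, had more Sema3a, Sema3d and Sema3e than progenitor-like nuclei, but less Sema3c. Of 44 members, 11 were at least 2-fold higher than in progenitor-like nuclei (4.72% of all genes) and 4 at least 2-fold lower (4.47% of all genes). Ntn1 (ratio 29.1, 19.0 to 46.2), Sema3e (27.1, 20.3 to 36.7), Sema3d (12.6, 11.5 to 13.9), Sema3a (9.55, 8.82 to 10.3) and Nrp2 (5.86, 4.99 to 6.89) were the highest. The 4 lower were Ephb1 (0.207), Robo2 (0.245), Sema3c (0.303) and Epha5 (0.402). Over the alternatives the ratio lay between 13.0 and 96.6 for Sema3e, 8.14 and 81.5 for Sema3d, 6.66 and 28.98 for Sema3a and 16.0 and 34.2 for Ntn1. All 4 comparisons share the progenitor-like class and the same library, so a gene that is low or high there recurs in them.

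Some classes were uneven inside. Between the 2 progenitor-like clusters, the one of 763 nuclei led by cell division genes had more Sema3a (109 against 14.7 CPM), Sema3d (62.9 against 13.3 CPM) and Dcc (122 against 52.6 CPM). The one of 1591 nuclei had more Slit2 (7168 against 4438 CPM) and Nrp1 (324 against 185 CPM). The cluster of 763 was the deeper one, with a median of 8969 against 5940 UMIs. Sema3a, Sema3d and Dcc had their highest levels in surface epithelium-like nuclei. In surface epithelium-like nuclei Dcc was at 630 CPM in the cluster of 466 nuclei and 92.3 CPM in that of 92, and Epha5 was at 5.08 and 65.6 CPM. In Sertoli-like nuclei the cluster of 237 had more Robo2 than that of 593, at 1505 against 561 CPM, and more Slit2, at 933 against 359 CPM, and it was the deeper one, with a median of 13856 against 8839 UMIs. In germ-like nuclei the cluster of 445 had more Robo2 and Slit2 than the cluster of 529, with Robo2 at 1388 against 450 CPM and Slit2 at 1120 against 342 CPM. Its nuclei were also deeper, with a median of 18444 against 13669 UMIs. The part of free RNA or merged nuclei in all these differences between clusters was not tested.

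Ligands and receptors were compared by the class where each was highest. Of 91 known ligand and receptor pairs, 68 had both genes above the minimum, and in 11 both were highest in the same class. These were 0 of 6 Slit pairs, 1 of 4 netrin pairs, 4 of 20 semaphorin pairs and 6 of 38 ephrin pairs. They comprised Ntn1 with Unc5d in germ-like nuclei, Sema7a with Plxnc1 and Sema5b with Plxna1 in Sertoli-like nuclei, and Sema5a with Plxna3 in pericyte-like nuclei. Sema3g with Nrp2, and Efnb2 with Ephb1 and Ephb4, were highest in endothelial-like nuclei, and Efna2 and Efna4 with Epha1 and Epha7 in surface epithelium-like nuclei. The list paired Sema3a and Sema3d with Nrp1 only and not with Plxna4, which was highest in the same class as both. In 6 of the 11 the highest class of Unc5d, Plxna3, Efna2 or Efna4 did not differ from the next beyond counting error, so that the shared class is uncertain. The share that unpaired genes would give was not computed, and many pairs have a gene in common. The counts of pairs are therefore a description. For Slits, Slit2 was highest in mesonephric mesenchyme-like nuclei, and its receptors Robo2 and Robo1 in progenitor-like and Leydig-like nuclei. The next highest class of Slit2 was progenitor-like at 5984 CPM, the class where Robo2 was highest at 7887 CPM. A count of highest classes does not show such a pair.

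Single nuclei thinned to 2000 UMIs show whether a pair was seen together. Sema7a was seen in 19.5% and Plxnc1 in 53.4% of 827 Sertoli-like nuclei, and both in 11% (8.95 to 13.3%, exact binomial), where the product of the shares is 10.4%. Sema7a was seen in 0.684% of progenitor-like and Plxnc1 in 4.63% of germ-like nuclei, the lowest shares among the large classes. Ntn1 and Unc5d were seen together in 1.54% of 972 germ-like nuclei (0.866 to 2.53%), near the product of 2.29%. Sema3g and Nrp2 were seen together in 0 of 93 endothelial-like nuclei, which allows a share of up to 3.89% by the exact interval. Without thinning both were seen in 9.57% of the 94 nuclei (4.47 to 17.4%), and in that class they were highest in different clusters. For all 11 pairs highest in the same class, the interval of the share seen together held the product of the 2 shares. With 4000 UMIs and without thinning this was so for 10 of the 11, the exception being Sema3g with Nrp2 (at 4000 UMIs 0 of 89 nuclei, up to 4.06%, against a product of 7.39%).

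A list of 55 other guidance genes was followed in the same way, except that their RNA was not left out of the clustering. Of 15 tested other ligands and co-receptors, 2 were led by 1 class. Dscaml1, a cell adhesion molecule, was at 33.5 CPM in germ-like nuclei (ratio 5.51), and Ntng2, a membrane-anchored netrin relative, at 78.9 CPM in surface epithelium-like nuclei (ratio 6.74). Of 33 tested intracellular genes, 6 were led. Both counts lie below the 20.1% of all genes, but near it for so few genes. Tiam1, a Rac activator, was at 753 CPM, Dpysl5 at 62.5 CPM and Rnd2 at 15.6 CPM in Sertoli-like nuclei. Arhgef15, an exchange factor of endothelium, was at 59.7 CPM and Crmp1 at 20.05 CPM in endothelial-like nuclei, and Fes, a kinase of myeloid cells, at 45.4 CPM in immune-like nuclei.

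Higher accessibility at the gene start in the class with the most RNA was detectable for few members. Classes for this comparison came from RNA alone, so that accessibility had no part in them. Of 57 members with enough fragments within 1 kb of a start, 10 had a higher CPM of promoter fragments (scaled to all fragments at peaks) in the class with the most RNA than in all other nuclei, with an interval above 1, and 0 had fewer. Over all genes the share with more was 25.0%, and the median ratio was 1.18 for members as well as for all genes. Counted as transposase cuts, 15 had more and 2 fewer, against 4140 and 563 of 11759 genes. Robo4 had 31.4 CPM of promoter fragments in endothelial-like nuclei against 5.90 elsewhere, a ratio of 5.33 (2.23 to 10.99) on 8 fragments. Sema3g followed at 2.87, Epha3 at 2.19, Robo2 at 2.14 and Ntn1 at 1.84. For Slit3, Robo1, Plxna4 and Sema3a, which differed strongly in RNA, the interval of the promoter ratio included 1. Their classes held 3, 31, 21 and 13 promoter fragments, so a difference may go unseen at this depth. For Slit3 the interval ran from 0.179 to 2.57.

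**Figure D5:**
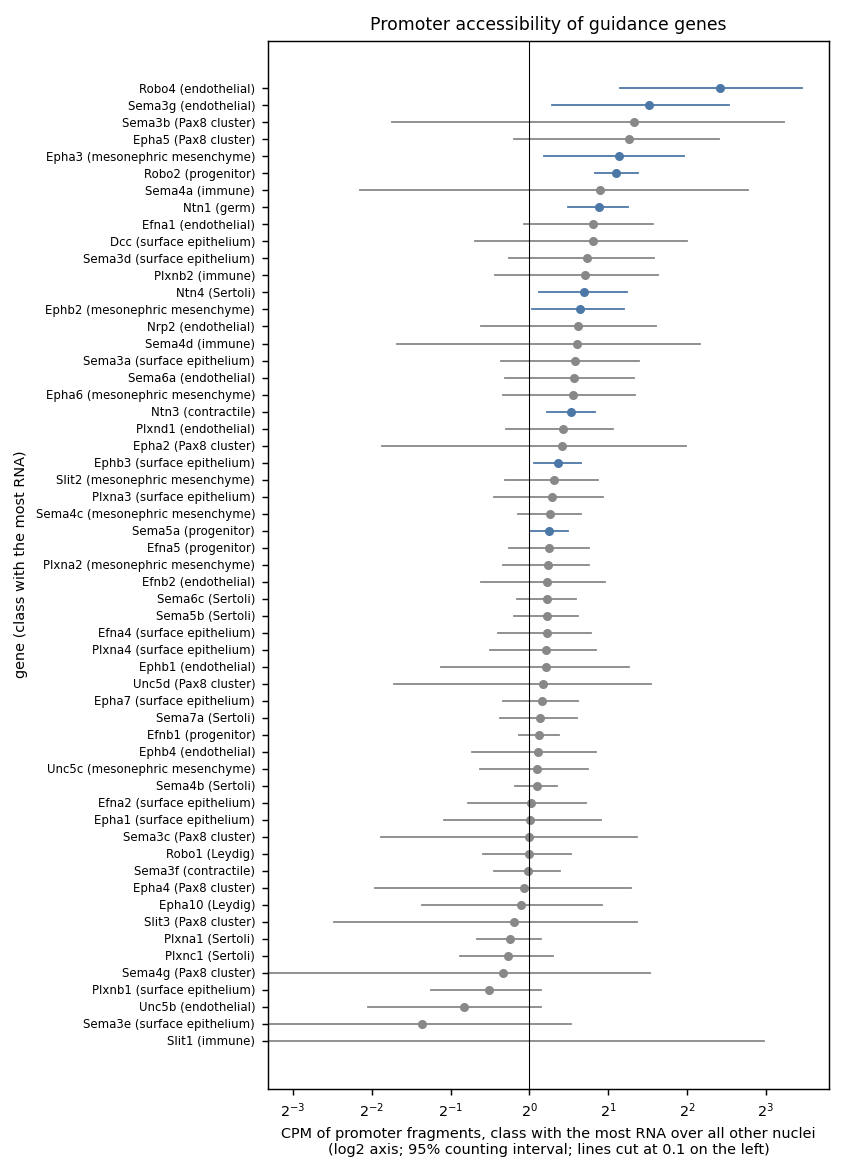
Ratio of the CPM of promoter fragments in the class with the most RNA (named beside each gene, classes from RNA alone) over all other nuclei for 57 guidance genes, on a log2 axis with 95% counting intervals. The 10 genes in blue have an interval above 1, from Robo4 at 5.33 to Sema5a at 1.19, whose highest class with RNA clusters is progenitor-like. Slit1 has no fragment in its class and so only a line.

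Away from the start, some single peaks reached larger ratios. In all 710 peak and gene pairs of 58 members, with peaks in the gene or within 50 kb, 110 were higher in the class with the most RNA, which is 15.5% against 14.54% of such pairs of all genes, a share near the background. The ones shown above, with chromosome 18 left out, were chosen for their inequality, so their ratios are a description. The peak of Sema5b, which overlaps an exon of that gene, had 36 fragments in Sertoli-like nuclei and 28 in all others, a ratio of 10.2 (6.07 to 17.4). The peak in Plxnc1, where an exon of Gm48718 also lies, had 51 and 48 fragments (ratio 8.46). The Sema6c peak, beyond the gene and in no annotated gene, had 40 and 44 fragments (ratio 7.24).

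The peaks shown for Sema3e and Sema3a were more accessible in surface epithelium-like nuclei than in all others. Unlike in the main classes, Sema3e RNA was highest in that class with clusters from RNA alone, at 96.0 CPM. The peak 32.2 kb upstream of Sema3e, in no annotated gene, had 25 fragments in surface epithelium-like nuclei and 78 elsewhere (ratio 6.54, 3.99 to 10.4). The peak in an intron of Sema3a had 23 and 72 fragments (ratio 6.52, 3.89 to 10.6). The promoter of Sema3e itself had 2 fragments in these nuclei and 105 elsewhere, a ratio of 0.389 with an interval from 0.0465 to 1.44. A difference at the start of this gene was not detectable at this depth.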

How the data were processed

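Testes of E14.5 mouse embryos (Nr5a1-cre; Rosa-tdTomato) were profiled as 1 RNA and 1 ATAC library of the same nuclei. Per the labels the authors ran Cell Ranger ARC 2.0.1 on mm10, and they deposited raw counts of UMIs per gene and of transposase cuts per peak, with a list of unique fragments. Filters followed the study's methods, except that fragments in blacklist regions were not counted and its DecontX step for free RNA was not run (mitochondrial and ribosomal UMIs each below 10%, haemoglobin below 0.5%, more than 500 genes, more than 20% of fragments in peaks, 250 to 25000 of those), and 470 doublets (6.13%) were removed by Scrublet rank in scanpy 1.11.5. Clusters came from weighted nearest neighbours in Seurat 5.3.0 (R 4.3.3), with the RNA of the 69 genes left out but not the peaks at them. The resolution of 0.6 replaced the planned 0.3 after the markers were seen, since 0.3 merged progenitor and contractile nuclei in 1 cluster that no marker list could name.

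UMI counts were added up within each class and scaled to CPM. A gene was tested at 50 UMIs and 10 CPM. It was led by 1 class at 2-fold over the next among classes of at least 50 nuclei. In the ranges given for Ephb1, Sema4b, Sema4c, Sema3f, Efnb1, Plxnb2 and Plxna3, the lower end is the lowest level among classes of at least 300 nuclei. Intervals of CPM are exact Poisson and those of ratios and shares exact binomial, at the 95% level, for counting error only. With 1 library per assay no p-value was computed. Promoter peaks lay within 1000 bp of a start, with at least 20 fragments. The code was tested on simulated counts. The genes described are those led by 1 class, the 4 most abundant per family, the 5 most unequal in each direction of a comparison, and others chosen after their values were seen. The members, the lists of pairs and pathway genes and the comparisons were chosen with earlier results of these data known. Counts include intronic reads of nuclei, so long genes collect more UMIs, and a CPM says little on the level of 1 gene against another unless given per kb of GENCODE vM21 span. All table columns were used. Alternatives covered doublets, clustering, filters, free RNA and thinning.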

Additional observations from a re-analysis of the deposited data

How the results depend on the processing

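The count of members led by 1 class, 19, lay between 15 and 26 under the alternatives except for Scrublet at its automatic threshold. That threshold removed 1345 instead of 470 barcodes and gave 31 of 60, against 22.2% of all genes. At 200 UMIs and 20 CPM the count was 15 of 46, against 17.6% of all genes. At 1 UMI with no CPM minimum it was 21 of 69, below the 34.7% of all genes. Members at least 2-fold higher in Leydig-like than in progenitor-like nuclei, 7, became 3 with clusters from ATAC alone and 4 at 200 UMIs and 20 CPM. Members at least 2-fold higher in progenitor-like than in mesonephric mesenchyme-like nuclei, 4, became 8 at the automatic threshold, 7 with free RNA subtracted, 7 as the mean of per-nucleus CPM and 11 at 1 UMI with no CPM minimum, which tests 68 genes instead of 44. Members higher in progenitor-like than in surface epithelium-like nuclei, 10, became 16 at that minimum. Sema7a and Plxnc1 were seen together in 23.9% of Sertoli-like nuclei thinned to 4000 UMIs and in 56.3% without thinning, where more UMIs are seen per nucleus. The cause of the other shifts was not tested.

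The calls of Sema6c, Plxna4, Ntn4 and Ntn1 were kept under all 12 alternatives. Clusters from ATAC alone kept 6 of the 19 calls, and under them Sema4d was lower in immune-like than in germ-like nuclei, with a ratio of 0.705. No other ratio turned its direction in the 613 recomputed values. These cover the called members and those named for a comparison of 2 classes, but not the highest class of members without a call. Nrp1 and Unc5d, with near-equal highest classes, changed order as given above. With clusters from RNA alone the highest class also changed for Sema3e, to surface epithelium-like, and Plxna2, to mesonephric mesenchyme-like. It further changed for Efnb1, to progenitor-like, Plxnb2, to immune-like, and Sema4g, to the Pax8-led cluster. Plxna3 and Sema4c could not keep their pericyte-like class, which was too small to rank there. Of the 613, 240 moved beyond the counting interval of the main value. With free RNA subtracted the ratio of Sema3f, progenitor-like over Leydig-like, was 336 instead of 4.74, and a ratio with a level of 0 after subtraction has no value. Apart from ATAC clusters, calls were lost with stricter minimums on nuclei (Epha10, Robo1, Sema4d, Sema5a, Epha6), with no doublet removal (Epha10, Robo1), with per-nucleus means (Robo1), at the automatic threshold (Sema4d) and at 200 UMIs and 20 CPM (Epha10, Epha1, Robo4, Sema3b). Clusters from RNA alone left 44 pericyte-like nuclei, too few to rank, so Sema5a had no call there, and Ntn4 kept its call although it was only 1.70 times the pericyte-like level. ATAC clusters gave no mesonephric mesenchyme-like, endothelial-like, pericyte-like, contractile-like or Pax8-led class, so the calls in those classes could not be kept there. Their immune-like class held 259 nuclei instead of 68, with the erythroid genes Kel, Rhag and Ermap among its leading genes, so the ratio of Sema4d is not from the same nuclei. The limit of 50000 UMIs was chosen after seeing the data. No paired analysis was possible because there is 1 library per assay. Depth limits members below 10 CPM and the smallest classes, and with 1 library the spread between testes is unknown.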
